A study of Mus musculus with 2 samples.

Results

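Natural killer (NK) cells were taken from a single-cell RNA sequencing experiment on mouse brain, with a Disc1 WT/WT library and a Disc1 LI/LI library, as the cells in which at least 3 of Ncr1, Klrb1c, Klre1, Klra4, Klra8, Eomes, Gzma and Prf1 were detected, with no unique molecular identifier (UMI) of Trac and with S100a8 plus S100a9 below 3% of UMIs. The rule found 83 NK cells among 14849 cells that had 200 or more genes and no more than 10% of UMIs from mitochondrial genes, of 14872 barcodes in all. The study counted fewer cells in its own analysis, by a filter not given in the sources used here, so the shares of cells below have other denominators than the study's. Of the 83, 19 came from the Disc1 WT/WT library and 64 from the Disc1 LI/LI library. Since the rule was applied to the same measurements that are described below, its 8 genes and the number of cells it found are a description.

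The LI allele is a locus impairment of Disc1, for which Disc1 LI/LI mice were homozygous, while their Disc1 WT/WT littermates carried the wild-type gene. Where a pair of values is given without names, Disc1 WT/WT comes first. All were males of 23 weeks, and the brains of 6 mice per genotype were pooled, so that each genotype had 1 library and nothing can be said about the spread between mice. Brains were dissociated in the presence of actinomycin D, an inhibitor of transcription that holds back changes during handling, and cells low in CD45 and positive for CD11b were sorted as microglia, so that the NK cells described here are those that fell within a gate set for microglia. The Disc1 WT/WT library held 7038 barcodes with 33601957 UMIs, and the Disc1 LI/LI library held 7834 barcodes with 47731571 UMIs. Disc1 itself gave 1 UMI in the Disc1 WT/WT NK cells and 0 in the Disc1 LI/LI NK cells. In cells with at least 5 of 8 microglia genes (microglia-rule cells), a Disc1 UMI was found in 8.94% and 0.885% of cells.

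NK cells are innate lymphocytes that kill infected, stressed or transformed cells without a rearranged antigen receptor. Activating receptors such as NKp46 (Ncr1) and NKG2D (Klrk1) and inhibitory receptors for MHC class I, in mice the Ly49 family (Klra genes), are weighed against each other. A killing cell releases perforin (Prf1), which opens the target membrane, and granzymes (Gzma, Gzmb), proteases that then enter the target. In mice, immature NK cells carry CD27 and lack CD11b, and with maturation they gain CD11b (Itgam), KLRG1 and the factors T-bet and Zeb2. Few NK cells are found in the healthy brain, mostly in the meninges and blood vessels.

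For 4 genes of the killing and recognition machinery, the promoter is shown. Ncr1, Gzma and Prf1 are genes of the rule, and Gzmb is the granzyme whose level differed most between the libraries. Each window runs from 250 bases before to 50 bases after the RefSeq start of the gene (GRCm38.p6), 5′ to 3′ on the coding strand. Capitals mark TGTGGT or its reverse complement ACCACA, the core letters bound by RUNX factors, which are active in NK and T cells.

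Ncr1, chr7:4337465-4337764, plus strand: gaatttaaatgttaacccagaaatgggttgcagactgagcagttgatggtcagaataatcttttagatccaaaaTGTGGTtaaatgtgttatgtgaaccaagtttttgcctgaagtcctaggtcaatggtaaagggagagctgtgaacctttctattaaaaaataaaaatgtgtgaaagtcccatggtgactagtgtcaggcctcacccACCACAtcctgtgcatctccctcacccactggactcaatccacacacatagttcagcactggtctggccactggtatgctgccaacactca
Gzma, chr13:113100932-113101231, minus strand: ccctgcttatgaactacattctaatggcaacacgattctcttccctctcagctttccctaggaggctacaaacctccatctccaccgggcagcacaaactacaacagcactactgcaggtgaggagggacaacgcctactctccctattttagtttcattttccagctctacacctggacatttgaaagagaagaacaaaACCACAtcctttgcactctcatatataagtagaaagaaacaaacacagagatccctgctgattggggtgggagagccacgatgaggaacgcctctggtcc
Prf1, chr10:61297586-61297885, plus strand: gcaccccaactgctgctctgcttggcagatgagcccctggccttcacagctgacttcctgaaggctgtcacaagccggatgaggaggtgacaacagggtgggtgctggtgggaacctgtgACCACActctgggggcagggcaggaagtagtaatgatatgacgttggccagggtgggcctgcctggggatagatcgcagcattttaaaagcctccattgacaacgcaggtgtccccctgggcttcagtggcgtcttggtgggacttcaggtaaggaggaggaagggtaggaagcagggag
Gzmb, chr14:56262285-56262584, minus strand: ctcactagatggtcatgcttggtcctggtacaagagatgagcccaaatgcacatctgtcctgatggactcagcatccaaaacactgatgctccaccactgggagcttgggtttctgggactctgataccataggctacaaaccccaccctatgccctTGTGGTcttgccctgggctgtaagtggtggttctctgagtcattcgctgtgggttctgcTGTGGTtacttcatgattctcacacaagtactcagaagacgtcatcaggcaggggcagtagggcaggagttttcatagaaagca

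The RUNX letters stood 176 and 41 bases before the start of Ncr1, 50 before that of Gzma, 130 before that of Prf1, and 93 and 34 before that of Gzmb. They were found in a window of 5 of the 8 genes of the rule (Ncr1, Klrb1c, Klre1, Gzma and Prf1), against 18.9% of the 27025 genes with a window and 16.8% of the 32851 windows. GGTGTGA, a T-box motif, was in none of the 8, against 4.6% of genes and 3.98% of windows. CTTTGAA, a TCF motif, was in none of the 8, against 5.93% of genes and 5.14% of windows. ACTTCCT, an ETS motif, was in 1 of the 8 (Prf1), against 10.7% of genes and 9.35% of windows. Each motif was searched on both strands and counted separately, and TGTGGT and GGTGTGA can share the letters GGT. These matches describe the letters of the windows only.

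The 8 genes of the rule are described first, and their presence in the selected cells was fixed by the rule. Klre1, an NK receptor of the NK gene complex on chromosome 6 (129577905 to 129585827, mm10), was detected in all 19 and all 64 NK cells. Ncr1 (chromosome 7, 4337724 to 4345164), which encodes NKp46, was detected in 19 of 19 Disc1 WT/WT against 61 of 64 Disc1 LI/LI NK cells, with 1080 and 854 UMIs per 1000000 UMIs of the NK cells (CPM). In microglia-rule cells, which should lack it, Ncr1 was detected in 0.0157% and 0.0932% of cells, at a median depth of 4271 and 3828 UMIs, against 3579 and 3576.5 UMIs for NK cells. Klrb1c, which encodes NK1.1, was detected in 18 of 19 and 61 of 64 cells, Gzma in 15 and 60, Prf1 in 15 and 46, Klra8 in 7 and 35, Eomes in 6 and 25, and Klra4 in 5 and 18. T cells, here cells with a Trac UMI and a UMI of Cd3d, Cd3e or Cd3g, held Klre1 in 12.5% and 26.6% of cells and Klra4 and Klra8 in none of 56 and 79, which allows a share of cells with a UMI of up to 5.36% and 3.80%.

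**Figure D1:**
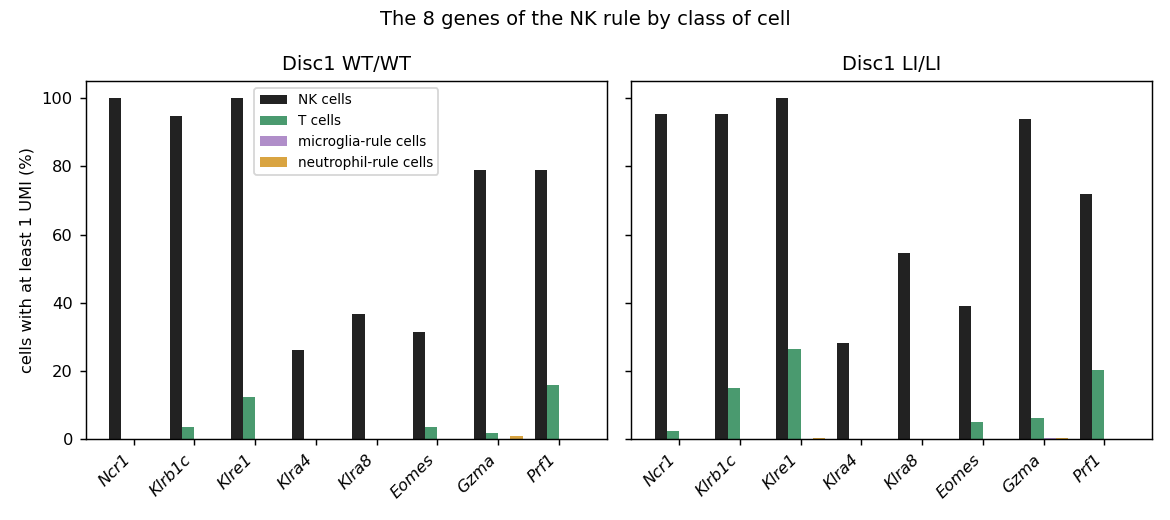
Percent of cells (y axis) with at least 1 UMI of each of the 8 genes that define the NK cells (x axis), in Disc1 WT/WT (left) and Disc1 LI/LI (right), by class of cell. Klre1 reached 100% of NK cells in both libraries and 12.5% and 26.6% of T cells, while bars of microglia-rule and neutrophil-rule cells are close to 0.

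The label was checked against genes of other lymphocytes, which, apart from Trac, the rule did not use. Trac, Cd4, Cd8a, Cd8b1, Cd5 and Cd6 had no UMI in either library. Cd3e had 0 UMIs in Disc1 WT/WT against 4 in 1 Disc1 LI/LI cell, Cd3d 0 and 13, and Cd3g 9 in 1 cell and 12. The 2 constant genes of the T cell receptor beta chain were present, with 10 and 73 UMIs of Trbc1 and 29 and 81 of Trbc2, and these are also known to be transcribed without rearrangement in NK cells. Of the genes of group 2 and group 3 innate lymphoid cells, only Gata3 had a UMI (4 and 10). The 8 genes of group 1 innate lymphoid cells, close relatives of NK cells, summed to 306 and 127 CPM, led by Cxcr6 with 120 CPM in Disc1 WT/WT but by Il7r with 80.8 CPM in Disc1 LI/LI, and Zfp683 and Itgae had no UMI.

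Outside the rule, the 15 genes that stood highest in NK cells over all other cells of the same library included NK receptors of the Klr families, granzyme B and the NK factor T-bet. They were, in order of the lower of the 2 folds, Klrb1a, Klra9, Klra3, Klri2, Klrc2, Tbx21, Gzmb, Xcl1, Il2rb, Klra7, Klrc1, Samd3, Fasl, Klrk1 and Gm19585. Klrk1, which encodes NKG2D, had 808 CPM in Disc1 WT/WT against 931 CPM in Disc1 LI/LI NK cells, 229-fold and 210-fold the other cells. Tbx21, which encodes T-bet, had 120 and 108 CPM. Fasl, the ligand of the death receptor Fas, had 164 and 169 CPM. Against T cells alone, Car2, a carbonic anhydrase, joined the NK receptors with 164 and 181 CPM in NK cells and 3 and 0 UMIs in T cells. Since the cells were selected on correlated genes, these values carry no test.

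At the edge of the rule, 3 Disc1 WT/WT NK cells and 2 of Disc1 LI/LI had exactly 3 of the 8 genes, each time Ncr1, Klrb1c and Klre1. None of these cells had a UMI of Eomes, Gzma or Prf1, and whether they are group 1 innate lymphoid cells was not tested. Just outside it, no Disc1 WT/WT cell and 4 Disc1 LI/LI cells had exactly 2 of the genes while meeting both other conditions. A further 2 and 8 cells had at least 3 NK genes and a Trac UMI, and 1 Disc1 LI/LI cell was left out for its S100a8 and S100a9 UMIs. Among the NK cells the highest share of S100a8 plus S100a9 was 0.021% of UMIs in Disc1 WT/WT against 0.229% in Disc1 LI/LI. The 2 libraries shared 12 barcodes, of which 1 was a Disc1 LI/LI NK cell.

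NK cells made up 0.270% of the 7032 Disc1 WT/WT cells (19 cells, exact binomial 95% interval 0.163% to 0.422%) and 0.819% of the 7817 Disc1 LI/LI cells (64 cells, 0.631% to 1.04%). The intervals did not overlap, but they cover counting error only and not the spread between mice or sorts. The rest of the 2 libraries differed as well. Neutrophil-rule cells (S100a8 plus S100a9 at 3% of UMIs or more) were 1.65% of Disc1 WT/WT against 46.3% of Disc1 LI/LI cells, and microglia-rule cells 90.8% and 27.5%. Outside the neutrophil rule, NK cells were 0.275% of 6916 and 1.53% of 4195 cells. Of NK plus T cells, they were 25.3% (19 of 75, 16.0% to 36.7%) and 44.8% (64 of 143, 36.4% to 53.3%), and here the intervals overlapped. The sort gate, the pool of mice and the genotype cannot be told apart in these shares.

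Some of the NK barcodes also held transcripts of microglia. At least 3 of 8 microglia genes were detected in 7 of 19 Disc1 WT/WT against 9 of 64 Disc1 LI/LI NK cells, called mixed droplets below. They were deeper than the others, with a median of 5790 UMIs to 3208 in Disc1 WT/WT, and of 9077 to 3517 in Disc1 LI/LI. They held 53.3% of the NK UMIs of Disc1 WT/WT against 27.0% of those of Disc1 LI/LI. All 8 microglia genes had UMIs in the NK cells, and they summed to 5970 CPM in Disc1 WT/WT against 2554 CPM in Disc1 LI/LI NK cells. Without the mixed droplets the sums were 420 and 190 CPM, over 12 and 55 cells. Values without these droplets are given beside many of the named genes.

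Over all NK cells, 2631 genes had at least 20 UMIs over both libraries. A gene was counted as higher or lower where its CPM, summed over the cells, differed at least 2-fold and the 95% counting interval of the log2 ratio, taken as Disc1 LI/LI divided by Disc1 WT/WT, left out 0. By this rule Disc1 LI/LI NK cells had 93 higher genes (3.53%) and 329 lower genes (12.5%), and the median log2 ratio of all 2631 genes was -0.15. With the mixed droplets left out, 60 of 1694 genes were higher (3.54%) and 150 lower (8.85%). Scaling by TMM moved all ratios up by 0.16, and gave 156 higher and 230 lower genes. With 1 library per genotype no test was possible, and these counts compare 2 libraries rather than 2 genotypes.

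Genes of NK cell maturation had the medians farthest from 0 among the lists of NK cell function. The lists were chosen with earlier results of these data known, so this order is a description and carries no test. Some genes are in a maturation list and in another list below, such as Cxcr3, Gzmb and Zeb2. The early list holds 10 genes that mark immature NK cells, and 9 of them had enough UMIs. All 9 were higher in Disc1 LI/LI NK cells, with a median log2 ratio of 2.89, and 8 met the 2-fold rule (background 3.53% higher). That median is the ratio of Il7r, which had 1 UMI in Disc1 WT/WT. With the 4 genes under 3 Disc1 WT/WT UMIs (Emb, Thy1, Cxcr3 and Il7r) set to 3, the median was 2.27. The minimum of UMIs was counted over both libraries. These 4 genes, and Cd27 and Tcf7 with 3 Disc1 WT/WT UMIs each, met it mostly through Disc1 LI/LI UMIs. Summed without that minimum, the 10 early genes had 1026 CPM in Disc1 WT/WT and 3239 CPM in Disc1 LI/LI NK cells. Without the mixed droplets these sums were 1402 and 3592 CPM. The late list holds 12 genes of mature NK cells, and 11 had enough UMIs. All 11 were lower in Disc1 LI/LI, with a median of -1.38, and 7 met the rule (background 12.5% lower). The cells were sorted on CD11b, which NK cells gain with maturation. The sort gate, the pool of mice and the genotype cannot be told apart in these list medians. Leaving out the mixed droplets gave medians of 2.31 over 8 early genes, of which 5 were counted as higher, and -1.22 over 8 late genes, of which 5 were counted as lower. In T cells of the same libraries the medians were -0.12 for the early list, with no gene past the rule, and -0.29 for the late list, with 1 gene higher, where 3.15% of the 5200 genes measured in T cells were higher and 11.1% lower. The medians over 6 early and 8 late genes were 0.71 and -0.09 in microglia-rule cells, and -0.39 and -0.63 in neutrophil-rule cells. With NK cells that held a Cd3d or Cd3e UMI left out, the medians in NK cells were 2.96 and -1.17.

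Emb, which encodes the adhesion protein embigin (chromosome 13, 117208536 to 117274415), had no UMI in the 19 Disc1 WT/WT NK cells and 87 UMIs in 40 of the 64 Disc1 LI/LI NK cells. For a gene in 0 of 19 cells, a floor of 3 cells gives an upper limit of 15.8% of cells with a UMI. With a floor of 3 counts over the Disc1 WT/WT NK cells, it was at least 10.2-fold higher in Disc1 LI/LI, and at least 5.26-fold without the mixed droplets. The gene was not missing from the Disc1 WT/WT library, where T cells had 264 CPM, and T cells of Disc1 LI/LI had 266 CPM. Microglia-rule cells had 5.33 and 48.2 CPM of Emb, a log2 ratio of 3.18 (2.92 to 3.44), so the rise was not confined to NK cells. In Disc1 LI/LI, neutrophil-rule cells had 246 CPM of Emb, and the level in NK cells, 335 CPM, was 136% of that. The part of free RNA in this difference was not tested.

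Ctla2a, an inhibitor of cathepsin-like proteases (chromosome 13, 60934155 to 60936625), was detected in 5 Disc1 WT/WT cells with 7 UMIs in all and in 50 Disc1 LI/LI cells with 236, which makes 76.4 and 908 CPM. Its log2 ratio was 3.57 (counting interval 2.51 to 4.90) and 3.16 without the mixed droplets. It was in 0.605% of the microglia-rule cells of Disc1 LI/LI. In T cells it had 201 and 186 CPM, so that its level in NK cells lay below that of T cells in Disc1 WT/WT but above it in Disc1 LI/LI.

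Thy1, a surface protein of T cells and of some NK cells, had 1 UMI in Disc1 WT/WT against 41 UMIs in 25 Disc1 LI/LI cells, a log2 ratio of 3.85 (1.29 to 9.19). Cxcr3, a chemokine receptor, had 2 and 46 UMIs, a log2 ratio of 3.02 (1.08 to 6.11). Cd27, the costimulatory receptor by which immature NK cells are commonly recognised, had 3 UMIs in 3 cells and 42 UMIs in 29 cells, a log2 ratio of 2.30 (0.66 to 4.64). Without the mixed droplets the intervals of Thy1 and Cxcr3 still left out 0, and that of Cd27 did not.

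Tcf7, the transcription factor TCF-1 of early lymphocytes, had 3 and 30 UMIs (log2 ratio 1.82, 0.13 to 4.17). Ltb, which encodes lymphotoxin beta, had 15 and 104 (1.29, 0.50 to 2.18). Il7r, the receptor for interleukin-7, had 1 and 21, of which 12 came from a single Disc1 LI/LI cell. Xcl1, a chemokine that attracts dendritic cells, had 60 and 233 UMIs and a log2 ratio of 0.45 (0.04 to 0.89), short of the 2-fold rule. Without the mixed droplets it was 0.17 with an interval that held 0 (-0.34 to 0.71). With the NK cells that held at least 3 T cell genes left out, it was 1.56. The spread over cells differed, since the 60 UMIs came from 5 of 19 Disc1 WT/WT cells, 33 of them from 1 cell, and the 233 from 49 of 64 Disc1 LI/LI cells. Kit, the tenth gene of the list, had 2 UMIs in each library, below the minimum. Relative to all UMIs of the NK cells it was lower in Disc1 LI/LI, unlike the measured early genes, though on few UMIs.

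In the late list, Gzmb (chromosome 14, 56258838 to 56262260), whose promoter with 2 RUNX matches is shown above, had 242 UMIs in 18 of 19 Disc1 WT/WT cells and 115 UMIs in 32 of 64 Disc1 LI/LI cells. The levels were 2641 and 442 CPM, a log2 ratio of -2.58 (-2.91 to -2.25). Over cells, Gzmb ranged from 0 to 113 UMIs with a median of 5 in Disc1 WT/WT, and from 0 to 14 with a median of 0.5 in Disc1 LI/LI, so the ranges overlapped. A single Disc1 WT/WT cell held the 113 UMIs, and with each cell given equal weight the log2 ratio was -2.0. Without the mixed droplets it was -2.97. In T cells Gzmb went the other way, with 39.0 and 75.3 CPM.

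Klrg1, an inhibitory receptor of mature NK cells, had 16 UMIs in 10 Disc1 WT/WT cells and 7 in 4 Disc1 LI/LI cells (log2 ratio -2.70, -4.22 to -1.34), and -3.73 without the mixed droplets, where its 9 and 3 UMIs were below the minimum of 20. Zeb2, a transcription factor needed for terminal NK maturation, had 47 and 35 UMIs (-1.93, -2.60 to -1.27), and -1.99 without the mixed droplets. Itgb2, the beta chain that pairs with CD11b, had 47 and 59 UMIs (-1.18, -1.75 to -0.59), and S1pr5, a receptor by which mature NK cells leave lymphoid organs, 11 and 12 (-1.38, -2.69 to -0.06), of which 4 and 11 lay outside the mixed droplets (-0.69, -2.44 to 1.42). Itgam, which encodes the CD11b used for the sort, had 47 and 35 UMIs (-1.93, -2.60 to -1.27), and -1.30 without the mixed droplets.

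Microglia also express some of these genes, and the mixed droplets bear on them. Microglia-rule cells had 743 and 471 CPM of Itgam, 478 and 322 CPM of Zeb2, and 3208 and 2494 CPM of Cx3cr1. Cx3cr1, a chemokine receptor of microglia and of mature NK cells, had a log2 ratio of -1.94 in all NK cells, but of -0.15 (-3.49 to 5.47) without the mixed droplets, where 1 and 4 UMIs were left. Cma1, Spn, Ly6c2 and Lgals1 were lower by less than 2-fold or with an interval that held 0, between -1.06 and -0.55. Prdm1, with 2 and 13 UMIs, fell below the minimum. Relative to all UMIs of the NK cells it was higher in Disc1 LI/LI, unlike the measured late genes, though on few UMIs.

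**Figure D2:**
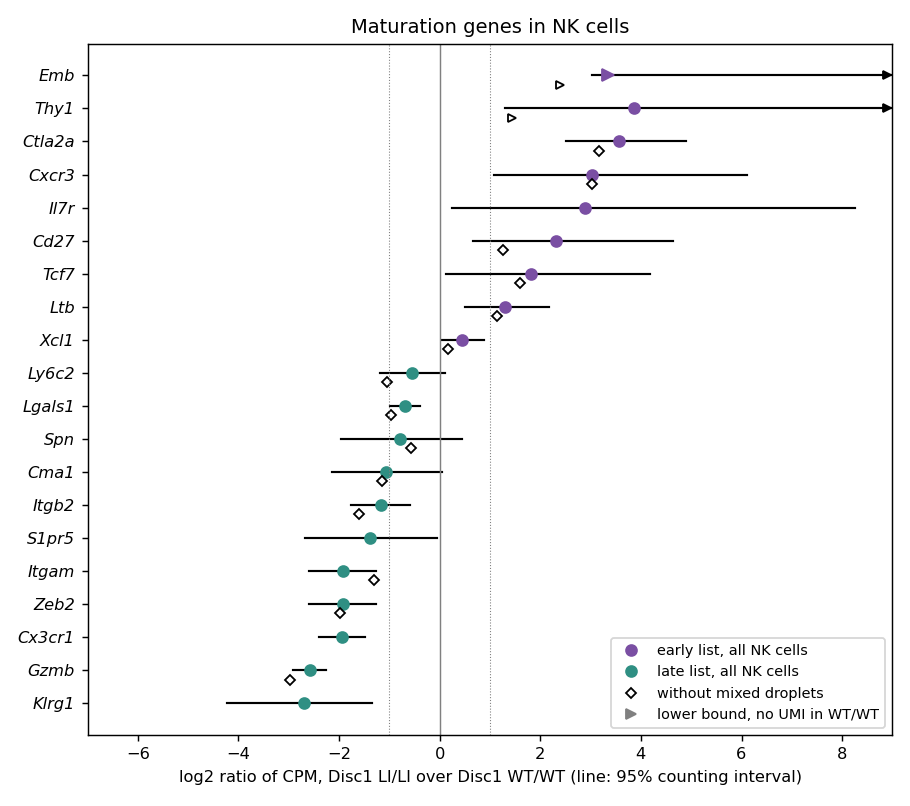
Log2 of the CPM of Disc1 LI/LI divided by that of Disc1 WT/WT (x axis), for each early and late maturation gene with at least 20 UMIs in NK cells (rows). Filled symbols are all NK cells with their 95% counting interval, open symbols are NK cells without mixed droplets, triangles are lower bounds for genes with no UMI in Disc1 WT/WT, and dotted lines mark 2-fold. Every early gene lies to the right of 0 and every late gene to the left.

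The difference was also visible cell by cell. In Disc1 WT/WT, 16 of 19 NK cells had more late than early UMIs, 1 had more early UMIs and 2 had equal numbers. In Disc1 LI/LI, 22 of 64 had more late, 39 more early and 3 equal numbers. Without the mixed droplets the cells with more early UMIs were 1 of 12 and 36 of 55. At least 3 of 12 T cell genes were detected in 1 Disc1 WT/WT NK cell and 5 Disc1 LI/LI NK cells. The Disc1 WT/WT cell is the one with more early UMIs, and it held 44 of the 94 early UMIs of its library, the highest value per 10000, and no Gzma or Prf1 UMI. Another Disc1 WT/WT cell, a mixed droplet, held 27 early and 32 late UMIs and also no Gzma or Prf1 UMI. With the 6 cells that held at least 3 T cell genes left out, 0 of 18 and 36 of 59 cells had more early UMIs, and the list medians were 2.86 and -1.67. The early list had a median of 2.79 UMIs per 10000 UMIs of a cell in Disc1 WT/WT (0 to 107) against 35.0 in Disc1 LI/LI (0 to 89.8), and the late list 67.7 (8.78 to 164) and 24.6 (3.13 to 114). The ranges of both lists overlapped between the libraries, and Disc1 LI/LI NK cells were not uniform, as 5 of 64 had no early UMI at all. Cells of 1 library are not replicates of a genotype, so these counts carry no test.

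**Figure D3:**
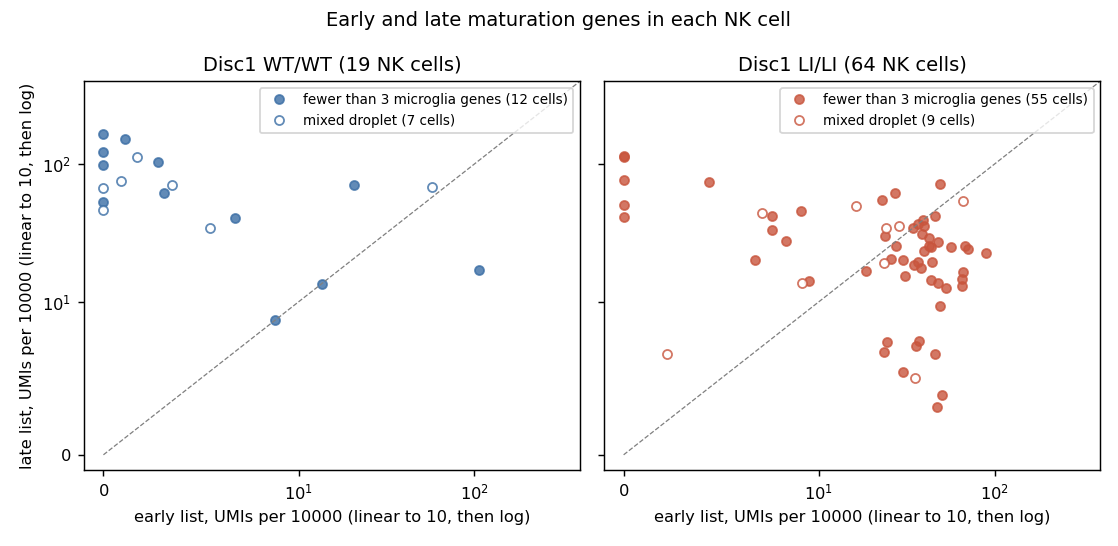
UMIs of the early list (x axis) and the late list (y axis) per 10000 UMIs in each NK cell of Disc1 WT/WT (left) and Disc1 LI/LI (right), on axes that are linear to 10 and logarithmic above. Open circles are mixed droplets and the dashed line marks equal values. In Disc1 WT/WT 16 of 19 cells lie above the line, in Disc1 LI/LI 22 of 64.

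Among the genes of killing, 13 of 21 had enough UMIs, with a median log2 ratio of -0.49. None was counted as higher and 2, Gzmb and Prf1, as lower, beside 3.53% higher and 12.5% lower over all genes. With mixed droplets left out, 3 of 12 were lower, Gzma being the other, beside 8.85% of all genes, and the median was -0.37. Prf1 (chromosome 10, 61297833 to 61304680), the pore-forming protein, was detected in 15 of 19 Disc1 WT/WT cells with 170 UMIs in all and in 46 of 64 Disc1 LI/LI cells with 136, which makes 1855 and 523 CPM (log2 ratio -1.83, -2.16 to -1.49, and -1.91 without the mixed droplets). Its median per cell was 5 UMIs in Disc1 WT/WT against 1 in Disc1 LI/LI. Gzma (chromosome 13, 113093825 to 113100981) had 1217 and 1961 UMIs, or 13282 and 7543 CPM, a log2 ratio of -0.82 (-0.92 to -0.71) that stayed under 2-fold, and of -1.04 (-1.16 to -0.92), past 2-fold, without the mixed droplets. Gzma was found in a larger share of Disc1 LI/LI cells (60 of 64) than of Disc1 WT/WT cells (15 of 19), while its median per cell was 23 against 65 UMIs. Since Prf1 and Gzma were among the 8 genes of the rule, their levels describe selected cells.

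Other genes of the killing machinery ranged from close to far between the libraries. Nkg7, a protein of cytotoxic granules, had 3569 and 3670 CPM (log2 ratio 0.04, -0.14 to 0.23). Serglycin (Srgn), which holds granzymes in the granule, had 808 and 885 CPM (0.13). Ctsw, a protease of killer lymphocytes, had 437 and 815 CPM (0.90, 0.41 to 1.43), and Fasl had 15 and 44 UMIs (0.05). Serpinb9b, a protease inhibitor of the family that protects killer cells from their own granzymes, had 17 UMIs in 5 cells and 5 UMIs in 3 cells, a log2 ratio of -3.27 (-5.06 to -1.77), one of the 10 lowest among genes above 100 CPM. Outside the mixed droplets it had 10 and 3 UMIs (-3.89, -6.39 to -1.93), too few for the minimum of 20.

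Of 10 cytokine and chemokine genes, 6 had enough UMIs, with a median log2 ratio of 0.26. The median was 1.5 when at least 4 of the 8 NK genes were required, which left out 3 cells of Disc1 WT/WT against 2 of Disc1 LI/LI. Ifng and Ltb were counted as higher (background 3.53%) and none as lower. With mixed droplets left out, Ltb was higher and Ccl3, a chemokine for macrophages and lymphocytes, was lower (-1.33), beside 3.54% and 8.85% of all genes. Ccl5, a chemokine stored by killer lymphocytes, was in every NK cell of both libraries, with 12583 and 13252 CPM (log2 ratio 0.07, -0.02 to 0.17), and with a ratio of -0.19 (-0.30 to -0.07) without the mixed droplets. Ifng, the main macrophage-activating cytokine of NK cells, had 1 UMI in Disc1 WT/WT against 23 UMIs in 14 Disc1 LI/LI cells (3.02, 0.40 to 8.38), and the interval held 0 without the mixed droplets. Ifng met the minimum through its Disc1 LI/LI UMIs. Ccl4 had 829 and 500 CPM (-0.73), from 7 of 19 and 23 of 64 cells, and 0.07 without the mixed droplets. Csf2 and Il10 had no UMI.

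**Figure D4:**
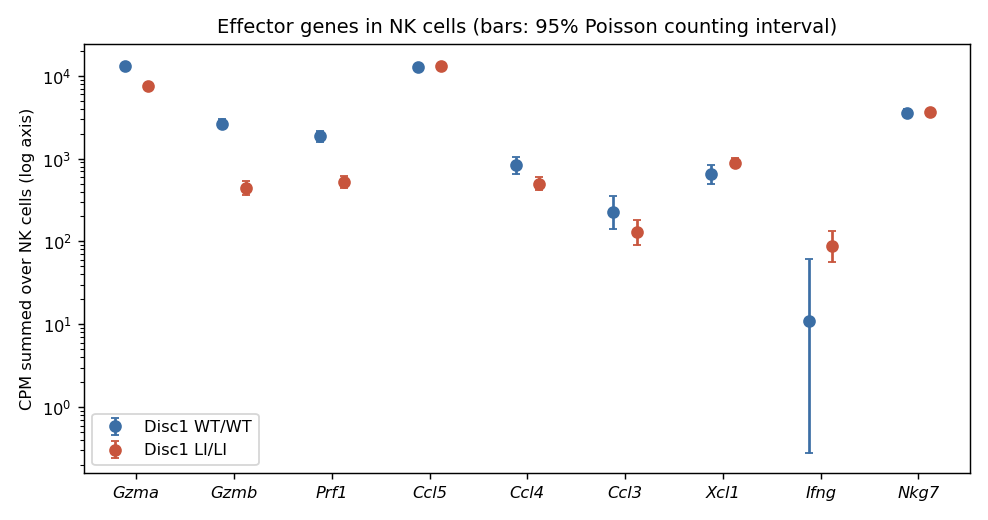
CPM summed over NK cells (y axis, logarithmic) for granule and secreted genes (x axis) in Disc1 WT/WT (blue) and in Disc1 LI/LI (red), with 95% Poisson intervals for counting error only. The intervals of Gzma (13282 and 7543 CPM), Gzmb (2641 and 442 CPM), Prf1 (1855 and 523 CPM) and Ccl4 (829 and 500 CPM) do not overlap between the libraries, while those of the other genes do.

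Receptors of NK cells had medians close to 0 as groups. Of 17 activating receptors and adaptors 15 had enough UMIs, with a median log2 ratio of 0.20, and 1 was counted as higher (Klra4) and 1 as lower (Cd244a). Of 17 inhibitory receptors 8 had enough, with a median of -0.10, and 2 were counted as lower (Klrg1 and Lair1) and none as higher. Over all genes 3.53% were higher and 12.5% lower, and these counts of 1 or 2 genes are too few to read against those shares. With mixed droplets left out, the activating list had none higher and 3 of 13 lower (Klrc2, Cd244a and Slamf7), and the inhibitory list had 1 of 6 higher (Klrc1) and 1 lower (Klra9), beside 3.54% and 8.85% of all genes. Lair1, with 2 and 1 UMIs left, and Klrg1 were then below the minimum. Ncr1 had a log2 ratio of -0.34 (-0.69 to 0.02), or -0.69 (-1.09 to -0.27) without the mixed droplets. That of Klrk1 was 0.20 (-0.18 to 0.60), and that of Klrd1, which encodes the CD94 partner of the NKG2 receptors, 0.12 (-0.21 to 0.47). The NKG2 partners differed in sign. Klrc1, the inhibitory NKG2A, had 25 and 115 UMIs (0.70, 0.06 to 1.38), and Klrc2, the activating NKG2C, 40 and 63 (-0.85, -1.44 to -0.24). Both were farther from 0 without the mixed droplets, at 1.90 (0.72 to 3.38) for Klrc1 and -1.30 (-1.97 to -0.61) for Klrc2. The pair can share reads, since 21.9% of the windows near the transcript end of Klrc1, defined below, were also found in Klrc2. Cd244a, the receptor 2B4, had 22 and 21 UMIs (-1.57, -2.51 to -0.64).

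The Ly49 family comprises close copies on chromosome 6, of which 9 of 11 had a UMI in NK cells and 5 had enough UMIs, with a median log2 ratio of 0.10 and 1 gene, Klra4, counted as higher (background 3.53%). Once mixed droplets were left out the median turned to -0.41, with no gene higher and 1, Klra9, lower, too few to read beside 3.54% and 8.85% of all genes. Klra8, the activating Ly49H, had 51 UMIs in 7 Disc1 WT/WT cells and 155 UMIs in 35 Disc1 LI/LI cells (557 and 596 CPM, log2 ratio 0.10, -0.37 to 0.59). Its direction turned without the mixed droplets, to 1121 and 664 CPM (-0.76, -1.25 to -0.25). Klra9 had 85 UMIs in 15 cells and 130 in 33 cells (928 and 500 CPM, log2 ratio -0.89, -1.30 to -0.48, and -1.09 without the mixed droplets). Klra4, the activating Ly49D, had 23 UMIs in 5 cells and 159 in 18 cells (251 and 612 CPM, 1.28, 0.65 to 1.98), but 0.39 without the mixed droplets. Klra3 and Klra7 were in 5 and 6 of the 19 Disc1 WT/WT cells and in 19 and 22 of the 64 Disc1 LI/LI cells, and a cell without a UMI may still carry the receptor. Klra1, Klra5 and Klra6 had no UMI in Disc1 WT/WT against 12, 14 and 9 UMIs in 3, 3 and 4 Disc1 LI/LI cells. Copies can share reads. Of windows of 90 bases in the last 500 bases of each transcript (GENCODE, mm10), 4.71% of those of Klra3, 6.57% of Klra7, 8.41% of Klra9 and none of Klra4 or Klra8 were found exactly in another gene of the NK receptor families.

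Of 19 homing and adhesion genes 14 had enough UMIs, with a median log2 ratio of -0.78. Cxcr3 and Ccr2 were counted as higher, and Itga4, Itgam, Itgb1, Itgb2, Itga2, Cx3cr1 and S1pr5 as lower, beside 3.53% higher and 12.5% lower over all genes. Cxcr3 is also in the early maturation list, and Itgam, Itgb2, Cx3cr1 and S1pr5 are in the late list, so their calls are the same ones. Over NK cells that were not mixed droplets the median was -0.26 over 11 genes, with 2 higher and 4 lower, beside 3.54% and 8.85%. Itga2 (9 and 8 UMIs), Cx3cr1 and S1pr5 were then below the minimum of 20 UMIs, which leaves out 3 of the 7 lower genes. Itga4, the alpha chain of the integrin VLA-4 that binds vessel walls, had 82 and 49 UMIs (-2.25, -2.79 to -1.72), and -2.31 without the mixed droplets. Itga4 was low in microglia-rule cells, with 8.57 and 19.3 CPM. Itga2, the CD49b of mature NK cells, had 12 and 12 UMIs (-1.5, -2.79 to -0.22). Ccr2, a chemokine receptor for recruitment to inflamed tissue, had 6 and 80 UMIs (2.23, 1.05 to 3.72). It was also higher in Disc1 LI/LI outside NK cells, with 14.0 and 55.7 CPM in microglia-rule cells and 0 and 29.8 CPM in neutrophil-rule cells.

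Of 16 transcription factors 10 had enough UMIs, with a median log2 ratio of -0.13. Tcf7 was counted as higher and Zeb2 and Irf8 as lower, where 3.53% and 12.5% of all genes were. The call of Tcf7 was lost without the mixed droplets (1.61, -0.39 to 4.72), and those of Zeb2 and Irf8 were not. Eomes and Tbx21, the pair of T-box factors that define NK cells, had log2 ratios of 0.40 (-0.76 to 1.74) and -0.16 (-1.21 to 1.00). Runx3, one of the RUNX factors, had 17 and 59 UMIs (0.29, -0.51 to 1.16). Irf8 had 69 UMIs in each library (-1.5, -2.01 to -1.0), and -1.66 without the mixed droplets. Of 19 cytokine receptor and signaling genes 12 had enough, with a median of -0.25, and Il7r was counted as higher and Tgfbr1, Tgfbr2 and Il12rb2 as lower, against the same background. With mixed droplets left out, 7 had enough UMIs, with none higher and 1, Il2rg, lower (-1.29), beside 8.85% of all genes, and the interval of Il7r held 0 (-0.94 to 7.15). Il12rb2, the chain of the interleukin-12 receptor that transmits the signal, had 17 UMIs in 11 cells and 7 in 7 cells (-2.78, -4.30 to -1.44), and -3.53 without the mixed droplets, where it had 13 and 5 UMIs, below the minimum of 20.

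Of 11 MHC class I genes 9 had enough UMIs, with a median log2 ratio of 0.50, and 1, H2-T23, was counted as higher (background 3.53%). H2-T23 encodes Qa-1, the ligand of NKG2A, and had 4 and 52 UMIs (2.20, 0.75 to 4.12), but an interval that held 0 without the mixed droplets (1.51, -0.14 to 3.85), where H2-Q7 was the gene of the list counted as higher. H2-K1 had a log2 ratio of 0.82 (0.60 to 1.04) and H2-D1 of 0.75 (0.51 to 0.99), and the median of the list was -0.26 in T cells. Of 27 genes of the ARP2/3 complex, the WAVE complex and actin regulation, 26 had enough UMIs, with a median of -0.30, and 3 were counted as lower, Cyfip1, Nckap1l and Abi3, a share near the 12.5% of all genes, and none without the mixed droplets. Genes of the cell cycle (4 of 18 with enough UMIs) had a median of 0.06 with none past the rule. The interferon list (4 of 19 in the files) had a median of 0.17 with 1 higher, Ifi47, and the immediate early list (7 of 18) a median of -0.15 with 1 higher, Fos, at 1 and 22 UMIs. Fos met the minimum through its Disc1 LI/LI UMIs. The calls of Ifi47 and Fos were lost without the mixed droplets. Mki67, a marker of dividing cells, had no UMI in any NK cell.

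Several properties of the 2 libraries differed alongside these results. Neutrophil transcripts were present in Disc1 LI/LI NK cells. All 12 genes of the neutrophil list had a UMI in at least 1 of the libraries, and they summed to 54.6 CPM in Disc1 WT/WT against 1285 CPM in Disc1 LI/LI. The 6 with enough UMIs were all counted as higher (background 3.53%), but they met the minimum through Disc1 LI/LI UMIs, which largely set this count. S100a8 had 1 and 73 UMIs, S100a9 2 and 96, Retnlg 0 and 56, Lcn2 0 and 34, and Ngp 0 and 27. S100a9, the most abundant, was in 76.6% of Disc1 LI/LI NK cells, in 84.8% of T cells and in 76.0% of microglia-rule cells, and its level in NK cells was 0.22% of that in neutrophil-rule cells. T cells had 93.0 and 1156 CPM for the same list. Of the 10 genes with the highest ratio above 100 CPM, Retnlg, S100a8, S100a9, Lcn2 and Ngp belong to this list. Iglc1, Iglc2, Igkc and Ly6d, genes of B lineage cells, came mostly from few barcodes, and 49 of 49 Iglc1 and 52 of 54 Iglc2 UMIs from 1 cell each.

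Of the 10 genes with the lowest ratios, several are expressed by microglia or macrophages and had most of their UMIs in the mixed droplets. Ccl12, a macrophage chemokine, had 29 UMIs in 4 Disc1 WT/WT cells and 1 in Disc1 LI/LI, Tanc2 had 17 and 7, and neither had a UMI outside the mixed droplets. Apoe, the lipid carrier of microglia and macrophages, had 252 UMIs in Disc1 WT/WT NK cells, 128 of them in 1 cell, and 114 in Disc1 LI/LI. Outside the mixed droplets Apoe had 10 and 3 UMIs, with a log2 ratio of -3.89 (-6.39 to -1.93), to -2.65 in all NK cells, and Tgfbr1 had 5 and 4 (-2.47, -4.80 to -0.25, to -2.83). For Acap2 (-2.15), Fcgr1 and Pmepa1 (-1.15 each) the interval held 0, with 4, 1 and 1 Disc1 WT/WT UMIs. The border macrophage list summed to 316 and 46.2 CPM in all NK cells and to 0 and 5.27 CPM without them, and the monocyte list to 2150 and 1069 CPM and to 677 and 832 CPM. In all NK cells the B cell list summed to 0 and 185 CPM, the T cell list to 535 and 712 CPM, the dendritic cell list to 491 and 735 CPM and the erythroid list to 0 and 23.1 CPM, and the mast cell and basophil list had no UMI. The part of these transcripts in the ratios of other genes was not tested beyond the values given without mixed droplets.

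**Figure D5:**
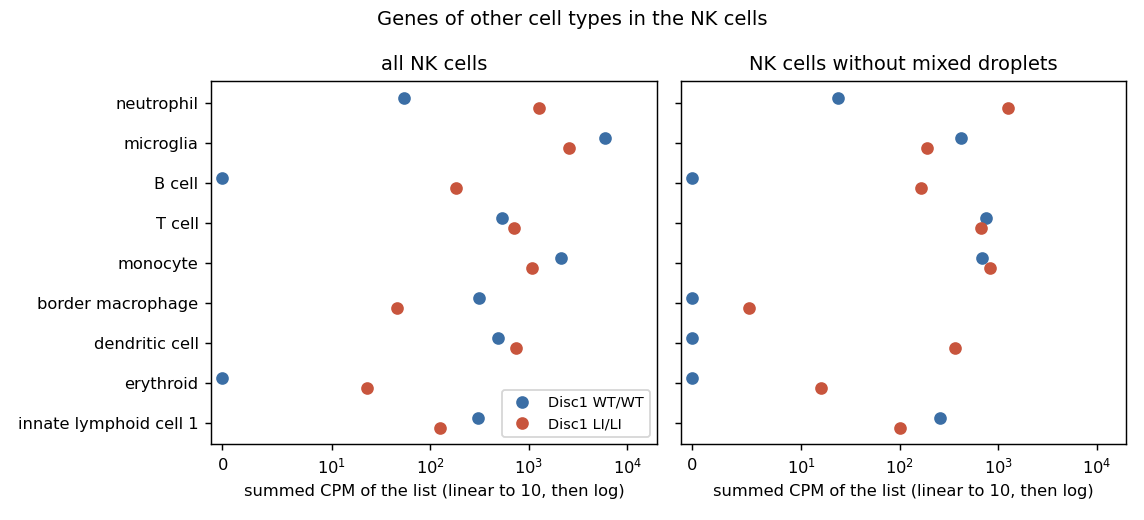
Summed CPM (x axis, linear to 10 and logarithmic above) of gene lists of other cell types (rows) in all NK cells (left) and in NK cells without mixed droplets (right), with Disc1 WT/WT in blue and Disc1 LI/LI in red. The neutrophil list is higher in Disc1 LI/LI in both panels (54.6 and 1285 CPM in all NK cells), and the microglia list drops from 5970 and 2554 CPM to 420 and 190 CPM.

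Transcripts of ribosomal proteins took a median of 12.3% of the UMIs of a Disc1 WT/WT NK cell (7.81% to 22.4%) and 26.7% of a Disc1 LI/LI NK cell (12.3% to 38.8%). The 80 measured genes of this list, which was added after the data were examined, had a median log2 ratio of 0.83 in NK cells and 0.38 in T cells. The median number of genes per NK cell was 1681 and 1415.5, and 640 and 578 with each cell thinned to 1000 UMIs. Ratios also followed gene length. Among 2630 genes split into 4 bins by genomic span, the 658 shortest had a median log2 ratio of 0.23 and the 658 longest of -0.64, with 0.21 and -0.56 in T cells and 0.29 and -0.40 in microglia-rule cells. Both maturation lists had 6 genes among the shortest, where the early genes had a median of 2.66 and the late genes of -0.93. The part of free RNA, ribosomal content and gene length in the other differences was not tested.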

How the data were processed

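Brain cells of 6 Disc1 WT/WT and 6 Disc1 LI/LI mice, pooled by genotype into 1 library each, were analysed from the counts the authors deposited. These are whole UMI counts for 32285 genes, not normalized, made with Cell Ranger 6.1.2 and STAR on mm10, with Seurat 3.0.1 also named in the submitters' processing notes. More than one droplet chip and kit version is named, and which library used which is not stated, so that a difference in kit and the genotype cannot be told apart.

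Genotypes came from the sample labels. NK cells, T cells, microglia-rule and neutrophil-rule cells were classed cell by cell with the rules given above, without clustering, and doublets were not removed but NK cells with at least 3 microglia genes were left out in turn. UMIs were summed over the cells of a library and divided by their total. The log2 ratio has a 95% Clopper-Pearson interval, shares have exact binomial intervals, and 0.5 counts were added for a ratio where a library had 0. Limits for a gene found in no cell are 3 divided by the number of cells, and are not exact binomial limits. All intervals and floors cover counting error only. No test was made, since cells are not replicates. The ratio and its interval were tried on data simulated with counting error alone. That simulation leaves out the clumping of UMIs in single cells, so it does not show how the intervals hold for such genes.

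The list of ribosomal protein genes was added after the data were seen. The members, the 27 other gene lists, the motifs and the rule for genes named were chosen with earlier results of these data known. Named genes were those of the lists, the 10 highest and 10 lowest ratios above 100 CPM with an interval that left out 0, the 15 highest folds over all other cells, and the 10 highest and 10 lowest against T cells. Disc1, the altered gene, was added. Coordinates came from GENCODE M21 by gene identifier (2630 of 2631 genes matched), and promoters from RefSeq GRCm38.p6. Alternatives were other cell filters, NK rules, scalings (edgeR 4.0.16), UMI minimums and thinning. Scripts ran under Python 3.11.15 with scipy 1.17.1 for intervals, pandas 2.3.3 and numpy 2.4.6 for counts, and matplotlib 3.10.9 for plots.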

Additional observations from a re-analysis of the deposited data

How the results depend on the processing

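The shares of NK cells, at 0.171% to 0.275% in Disc1 WT/WT and 0.691% to 0.870% in Disc1 LI/LI over 12 alternatives, kept their order. The median of the early maturation list was 1.81 to 3.76 and that of the late list -1.93 to -0.62 over 20 alternatives, the smallest, -0.62, with cells thinned to 1000 UMIs, against -1.38. The counts of genes were less stable. Against 93 higher and 329 lower genes, leaving out mixed droplets gave 60 and 150, leaving out B cell gene droplets too gave 53 and 141, mixed droplets left out with TMM scaling gave 71 and 111, TMM scaling alone gave 156 and 230, RLE size factors 152 and 234, totals without ribosomal protein genes 176 and 213, thinning 39 and 29, cells with at least 3 T cell genes left out 100 and 310, a minimum of 10 UMIs 117 and 533, a minimum of 50 UMIs 55 and 101, and a 1.5-fold limit 186 and 415. The alternatives with B cell genes, with T cell genes, without ribosomal genes and with both mixed droplets and TMM were chosen after seeing the data. The median of the monocyte list, -1.11, reversed to 1.29 without mixed droplets, 1.27 without B cell gene droplets too, 1.38 with TMM scaling as well and 0.84 with a minimum of 10 UMIs, and the cause was not tested; it rested on 4 genes, and on 3 without mixed droplets. The median number of genes per NK cell was 640 and 578 after thinning. With at least 4 of 8 NK genes required, the log2 ratio of Xcl1 went from 0.45 to 3.90 and the median of the cytokine list from 0.26 to 1.5. This setting left out 3 Disc1 WT/WT cells, among them the cell with 33 of the Xcl1 UMIs. With cells that held at least 3 T cell genes left out, the log2 ratio of Apoe went from -2.65 to -7.04, that of Pmepa1 to -3.71 and that of Xcl1 to 1.56. No paired analysis was possible because each genotype had 1 library. With 19 Disc1 WT/WT NK cells, 91630 UMIs in all, a gene below 32.7 CPM there was not detectable above the floor of 3 counts.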
